A study of Mus musculus with 8 samples.

Results

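The 32 genes described here are receptors, ligands, modifying enzymes, nuclear partners and target genes of the Notch pathway. They were taken by gene name, from a list of names drawn up with earlier results of these data known, as every probe on the array that carries the name of a Notch receptor, a Delta or Jagged ligand, a Fringe enzyme, Rbpj, a Mastermind factor, a Hes or Hey factor, or a modulator on that list. Such probes numbered 42 of 55583, with 1 probe for 23 of the genes and 2 or more for 9. RNA was measured in mouse embryonic stem cells with both copies of Nkx2-5 intact (WT) and in cells with 1 of the copies carrying R141C, which replaces an amino acid in this homeobox factor of the early heart. Each genotype was sampled undifferentiated (day 0) and after 6 days of culture toward cardiac progenitors, through hanging drops without LIF, suspension culture and a last day plated on gelatin. Each of the 4 groups had 2 arrays of separate biological replicates, with 1 single-colour array per sample, and the labels name no second line or clone of either genotype.

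Notch signalling passes between touching cells. A Delta or Jagged ligand on a cell binds a Notch receptor on its neighbour, the receptor is cut by ADAM and gamma-secretase proteases, and the freed intracellular part enters the nucleus. There it joins the DNA-binding protein RBPJ and a Mastermind co-activator and switches on target genes, of which the Hes and Hey repressors are the best known. In the early embryo the pathway is known for roles in somite formation, in arterial endothelium, and in the patterning of the heart, where Hey1 marks atrial and Hey2 ventricular muscle.

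RBPJ is known to bind the letters GTGGGAA. The 250 bases before the transcription start were searched for them on both strands in RefSeq promoter windows of build GRCm38.p6, which held 31 windows for 24 of the 32 genes. Hes1, Hes2, Hes3, Hey1, Heyl, Mfng, Dtx3 and Dtx4 were not searched here. A match was found in 5 of the 31 windows (16.1%), against 5.42% of all 32851 windows of this length. The shorter letters TGGGAA, which every GTGGGAA contains, were in 9 of the 31 (29.0%) and in 21.6% of all windows. A match is a description of the letters and shows no binding. Of the 5 windows, those of a pair of Hes factors, of Hey2 and of Lfng are shown because these genes are direct subjects of the results below, and the fifth belonged to Psen2, a subunit of gamma-secretase. Capitals mark GTGGGAA or its reverse complement TTCCCAC.
Hes5 (chr4:154960673-154960922, plus strand): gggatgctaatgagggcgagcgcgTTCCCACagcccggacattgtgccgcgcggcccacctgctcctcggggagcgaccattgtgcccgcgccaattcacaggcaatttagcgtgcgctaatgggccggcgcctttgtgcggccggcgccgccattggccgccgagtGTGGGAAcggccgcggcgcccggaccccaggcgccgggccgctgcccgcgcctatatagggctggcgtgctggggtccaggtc
Hey2 (chr10:30842784-30843033, minus strand): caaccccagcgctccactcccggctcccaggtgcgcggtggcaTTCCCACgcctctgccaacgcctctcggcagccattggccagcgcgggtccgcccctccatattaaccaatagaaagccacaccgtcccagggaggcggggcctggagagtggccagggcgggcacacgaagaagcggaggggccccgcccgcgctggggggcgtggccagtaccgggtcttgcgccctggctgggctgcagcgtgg
Hes7 (chr11:69120203-69120452, plus strand): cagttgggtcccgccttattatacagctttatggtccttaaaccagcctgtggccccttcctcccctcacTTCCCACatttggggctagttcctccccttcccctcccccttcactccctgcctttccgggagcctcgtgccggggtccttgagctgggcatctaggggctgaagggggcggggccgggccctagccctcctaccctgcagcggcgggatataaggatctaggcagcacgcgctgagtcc
Lfng (chr5:140607091-140607340, plus strand): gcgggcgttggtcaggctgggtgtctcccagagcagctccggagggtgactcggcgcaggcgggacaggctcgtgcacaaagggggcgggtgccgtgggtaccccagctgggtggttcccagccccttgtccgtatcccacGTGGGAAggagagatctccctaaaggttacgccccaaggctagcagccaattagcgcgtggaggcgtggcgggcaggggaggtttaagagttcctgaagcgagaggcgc
Hes5 held a match on each strand, at 226 to 220 and at 83 to 77 bases before its start. The match lay at 207 to 201 bases before the start of Hey2, at 180 to 174 before that of Hes7 and at 109 to 103 before that of Lfng. Hes5 and Hey2 rose during WT differentiation, and Hes7 and Lfng did not pass the test, as given below.

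Signals are log2 values in which 0 stands for an array's own 75th percentile, so a difference of 1 is a 2-fold change and levels of different genes are not comparable. All 8 arrays lay on 1 slide and came from 1 scan, with each group in its own positions, so position and group cannot be told apart. Between 55.8% and 70.5% of probes were well above background per array. Each gene was represented by its brightest probe and entered the test where both arrays of 1 group or more showed it well above background, which 25892 of 34736 gene names did (74.5%). All 32 genes passed, and 28 of them were well above background on all 8 arrays. Dll4, Hey2 and Heyl passed only through day 6, Heyl through WT day 6 alone. Dll4 and Heyl were not well above background on any of the 4 day 0 arrays, and Hey2 was on 1 of 2 arrays in each day 0 group. Correlations between the 2 arrays of a group, across genes, ran from 0.9848 to 0.9921, and R141C replicate 1 at day 6 correlated less with the WT arrays of that day (0.9827 and 0.9821) than replicate 2 did (0.9887 and 0.9883).

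**Figure D1:**
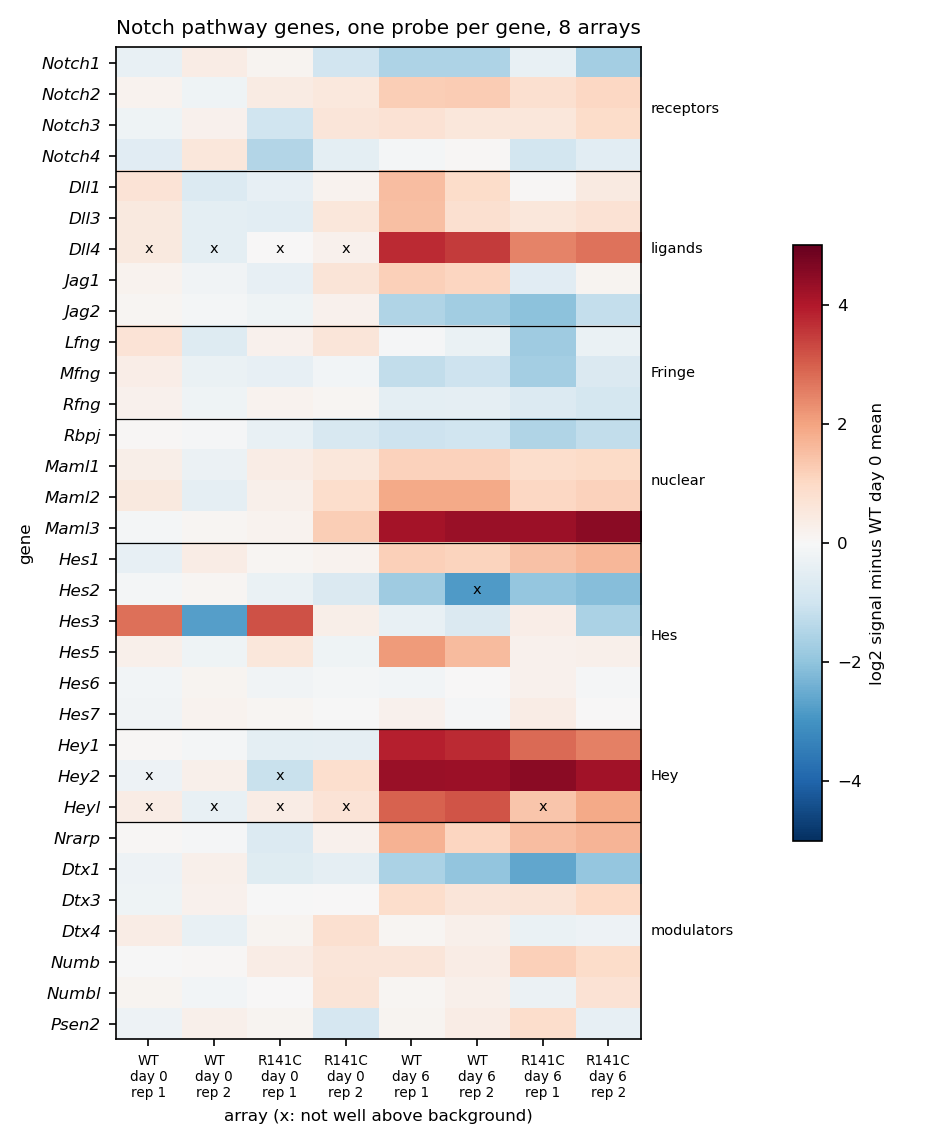
Heat map of the 32 Notch pathway genes (rows, in groups by role) on the 8 arrays (columns), each coloured by its log2 signal minus the mean of the 2 WT day 0 arrays; x marks a probe not well above background on that array. The strongest red, at day 6, is in Dll4, Maml3, Hey1 and Hey2, and the 4 day 0 arrays of Hes3 are split between red and blue.

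During WT differentiation Hey1, Hey2, Heyl, Dll4 and Maml3 were among the genes that rose, and Hes2, Dtx1, Jag2 and Rbpj fell. In limma with Benjamini-Hochberg adjustment over all 25892 genes, 15 of the 32 changed between day 0 and day 6 in WT (adjusted p under 0.05), where 24% of all genes did. Of them 11 rose (11% of all genes did) and 4 fell (12.9%). Dll4, Hey2 and Heyl, among the 11, passed the filter only through day 6, where they are high, so their rise is in part fixed by it. Of the 28 genes well above background on all 8 arrays, 8 rose and 3 fell in WT. Of all 21104 such genes on the array, 2572 rose and 2538 fell. In R141C 10 of the 32 changed, 6 of them rising and 4 falling, against 15.6% of all genes (7.6% rising and 8.04% falling). Dll4 and Hey2 were among the 6. Of the 28 genes well above background on all 8 arrays, 4 rose and 4 fell in R141C, where 1741 and 1681 of the 21104 did. The median difference of the 32 was 0.56 in WT and 0.3 in R141C, beside -0.12 and -0.03 over all genes. The genes changed in both genotypes numbered 9 (9 of 15 in WT and 9 of 10 in R141C), in the same direction each time. They were Dll4, Jag2, Hes1, Hes2, Hey1, Hey2, Maml3, Nrarp and Dtx1. The share of all genes called in both genotypes was not counted, so the 9 are not shown to be particular to the pathway. The tests of both genotypes used 1 shared estimate of the spread.

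Hey1 is a basic helix-loop-helix repressor of the heart and vessels (probe A_51_P258409, chromosome 3, 8663432 to 8663491 on mm9). Its log2 signal was 0.06 and -0.09 on the WT arrays and -0.48 and -0.47 on the R141C arrays at day 0. At day 6 it was 3.88 and 3.71 in WT and 2.84 and 2.52 in R141C. All 4 day 6 arrays lay above all 4 day 0 arrays. Hey1 rose 14-fold in WT (log2 difference 3.81 ± 0.2, SE, adjusted p = 0.00032) and 8.92-fold in R141C (3.16 ± 0.2, adjusted p = 0.000726). These were the smallest adjusted p-values among the 32 genes in both genotypes.

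Hey2, the ventricular member of the family, rose in both genotypes from a day 0 level near background (A_51_P307082, chromosome 10, 30552729 to 30552788). It was at -6.42 and -5.94 in WT and -7.29 and -5.33 in R141C at day 0, when 1 of the 2 arrays of each group was well above background. At day 6 it was at -1.86 and -1.91 in WT and at -1.67 and -1.99 in R141C. The day 6 values of the genotypes overlapped. The rise was 19.6-fold in WT (4.29 ± 0.58, adjusted p = 0.0039) and 22.3-fold in R141C (4.48 ± 0.58, adjusted p = 0.00516). Its size is imprecise, at 3.49 on the log2 scale in R141C without day 0 replicate 1 and at 5.46 without day 0 replicate 2. With normexp background correction, which lifts dim signals, the rise was 2.51 in WT and 2.53 in R141C.

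Heyl, the third Hey factor, was dim throughout (A_52_P337259, chromosome 4, 122926975 to 122927034). It was not well above background at day 0, at -6.29 and -7.06 in WT and -6.28 and -5.99 in R141C. At day 6 it was at -3.71 and -3.54 in WT, on both arrays well above background, and at -5.3 and -4.76 in R141C, where 1 of the 2 arrays was. For its fold, a day 0 signal below the dimmest signal well above background on its array was raised to that signal. Measured so, Heyl rose 7.11-fold in WT and differed 1.96-fold in R141C. The limma test used the signals not raised, with a log2 difference of 3.05 in WT (adjusted p = 0.00165). In R141C that difference was 1.11 and did not pass (adjusted p = 0.0648). With normexp background correction the WT difference was 1.07 on the log2 scale in place of 3.05, so 7.11-fold is not a lower bound.

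Among the Hes repressors, the genes did not share a direction. Hes1, an oscillating repressor in many progenitors (A_55_P2046245, chromosome 16, 30067820 to 30067879), was at -1.1 and -0.31 in WT and -0.62 and -0.52 in R141C at day 0. It was at 0.49 and 0.42 in WT and 0.78 and 0.97 in R141C at day 6. All day 6 arrays were above all day 0 arrays, and Hes1 rose 2.23-fold in WT (1.16 ± 0.28, adjusted p = 0.0282) and 2.73-fold in R141C (1.45 ± 0.28, adjusted p = 0.0191).

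Hes5, a Notch target of neural progenitors (A_52_P622850, chromosome 4, 154336347 to 154336406), was at -1.77 and -2.24 in WT and at -1.44 and -2.22 in R141C at day 0. At day 6 it was at 0.11 and -0.44 in WT and at -1.78 and -1.74 in R141C. The WT day 6 arrays were above the other 6, and the R141C day 6 arrays lay inside the range of day 0. Hes5 rose 3.59-fold in WT (1.84 ± 0.34, adjusted p = 0.0108), and its difference in R141C was 0.08 ± 0.34 (adjusted p = 0.9).

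Hes2 went the other way (A_52_P263658, chromosome 4, 151536406 to 151536465). It was at -2.66 and -2.48 in WT and -2.92 and -3.29 in R141C at day 0, and at -4.35 and -5.41 in WT and -4.49 and -4.71 in R141C at day 6. Every day 6 array was below every day 0 array, and 1 of the 2 WT day 6 arrays was not well above background. Hes2 fell by 2.31 ± 0.36 on the log2 scale in WT (adjusted p = 0.00622) and by 1.5 ± 0.36 in R141C (adjusted p = 0.0361), and with normexp background correction the differences were -1.22 and -0.67, the latter no longer called (adjusted p = 0.0804). Hes6 and Hes7, the latter a clock gene of the somites, had differences of -0.07 to 0.22 and did not pass. Hes3, a further Hes repressor (A_55_P1963580, chromosome 4, 151660083 to 151660142), was at -0.54 and -6.08 in WT and -0.11 and -3.03 in R141C at day 0, and at -3.68 and -4.05 in WT and -2.97 and -4.89 in R141C at day 6. Its day 0 replicates lay far apart, the days overlapped within each genotype, and neither difference passed (-0.56 ± 1.8 in WT and -2.36 ± 1.8 in R141C).

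Of the 5 ligands, Dll4 rose and Jag2 fell in both genotypes. Dll4, the Delta ligand of endothelium (A_51_P384402, chromosome 2, 119160779 to 119160838), was not well above background at day 0, at -5.94 and -6.9 in WT and -6.42 and -6.21 in R141C. It was well above background on all 4 arrays of day 6, at -2.69 and -2.94 in WT and -3.95 and -3.72 in R141C. Measured as for Heyl, it rose 12.2-fold in WT and 4.49-fold in R141C. In WT this is the plain fold, as neither day 0 signal lay below the dimmest signal well above background. The limma test used the signals not raised, with log2 differences of 3.61 in WT (adjusted p = 0.00104) and 2.48 in R141C (adjusted p = 0.00551). With normexp background correction the differences were 1.79 and 1.18 on the log2 scale, so these folds are not lower bounds.

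Jag2 (A_51_P451338, chromosome 12, 114146887 to 114146946) was at 0.87 and 0.67 in WT and 0.56 and 0.98 in R141C at day 0. It was at -0.74 and -0.97 in WT and -1.3 and -0.44 in R141C at day 6, so that all day 6 arrays were below all day 0 arrays. Jag2 fell by 1.62 ± 0.32 in WT (adjusted p = 0.0141) and by 1.64 ± 0.32 in R141C (adjusted p = 0.0195). The other ligands, Dll1, Dll3 and Jag1, differed by 1.24, 1.16 and 1.13 in WT and by 0.36, 0.61 and -0.35 in R141C, and none of these passed (adjusted p of 0.0861 to 0.121 in WT and 0.423 to 0.651 in R141C).

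Of the 4 receptors, Notch2 alone passed, in WT. It was at 1.15 and 0.76 in WT and 1.37 and 1.48 in R141C at day 0, and at 2.19 and 2.22 in WT and 1.75 and 1.99 in R141C at day 6 (A_52_P289213, chromosome 3, 97953914 to 97953973). Notch2 rose 2.37-fold in WT (1.25 ± 0.21, adjusted p = 0.00878) and differed by 0.45 ± 0.21 in R141C (adjusted p = 0.211). A dimmer Notch2 probe, A_55_P1982793, differed by -0.05 in WT and -0.14 in R141C, and with the mean of the probes the WT difference was 0.6, no longer called (adjusted p = 0.054). Notch1, at -2.15 and -1.4 in WT at day 0 and at -3.31 on both WT arrays at day 6, did not overlap between the days but did not pass (-1.54 ± 0.55, adjusted p = 0.0872). Notch3 and Notch4 differed by 0.63 and -0.01 in WT and by 0.92 and 0.25 in R141C, and did not pass.

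Of the nuclear partners, the 3 Mastermind co-activators rose and Rbpj fell in WT, and Maml3 alone passed in R141C. Maml3 (A_55_P2182497, chromosome 3, 51491665 to 51491724) was at -2.35 and -2.19 in WT and -2.08 and -1.04 in R141C at day 0. It was at 1.89 and 2.06 in WT and 2 and 2.25 in R141C at day 6. The days did not overlap, and Maml3 rose 19-fold in WT (4.25 ± 0.35, adjusted p = 0.000731) and 12.9-fold in R141C (3.69 ± 0.35, adjusted p = 0.00174). A dimmer Maml3 probe, A_55_P2147747, differed by 4.29 in WT and 3.87 in R141C. At day 0 this probe was not well above background on either WT array (-7.28 and -7.06) or on R141C replicate 1. The sizes of its differences are therefore not measured. Another Maml3 probe, A_52_P47126, was well above background only on R141C day 6 replicate 2.

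Maml2 (A_51_P373696, chromosome 9, 13511227 to 13511286) went from -4.38 and -5.31 to -2.97 and -2.94 in WT, and from -4.6 and -3.96 to -3.8 and -3.71 in R141C. It rose 3.71-fold in WT (1.89 ± 0.35, adjusted p = 0.0114) and differed by 0.53 ± 0.35 in R141C (adjusted p = 0.364). With normexp background correction the WT rise of Maml2 was 1.22. Maml1 (A_55_P2054777, chromosome 11, 50069166 to 50069225) went from 2.5 and 1.92 to 3.37 and 3.38 in WT, and from 2.57 and 2.76 to 3.09 and 3.17 in R141C. It rose by 1.17 ± 0.24 in WT (adjusted p = 0.016) and differed by 0.47 ± 0.24 in R141C (adjusted p = 0.247).

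Rbpj, the DNA-binding partner of every canonical Notch response (A_66_P139267, chromosome 5, 54048503 to 54048562), was at 3.23 and 3.12 in WT and 2.78 and 2.37 in R141C at day 0. It was at 2.15 and 2.17 in WT and 1.66 and 1.92 in R141C at day 6. Within each genotype the days did not overlap, and Rbpj fell by 1.01 ± 0.22 in WT (adjusted p = 0.0187), while its difference in R141C was -0.78 ± 0.22 (adjusted p = 0.0562). A dimmer Rbpj probe, A_55_P2022524, differed by -1.69 in WT and -0.4 in R141C.

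Among the modulators, Nrarp rose and Dtx1 fell in both genotypes. Nrarp, a target of Notch that feeds back on the receptor complex (A_51_P504354, chromosome 2, 25038038 to 25038097), went from -3.26 and -3.34 to -1.58 and -2.22 in WT and from -3.97 and -3.1 to -1.76 and -1.62 in R141C. It rose 2.63-fold in WT (1.4 ± 0.35, adjusted p = 0.0295) and 3.6-fold in R141C (1.85 ± 0.35, adjusted p = 0.0167). Dtx1, a Deltex ubiquitin ligase (A_51_P202050, chromosome 5, 121130278 to 121130337), went from 1.47 and 1.95 to 0.14 and -0.28 in WT and from 1.11 and 1.28 to -0.88 and -0.21 in R141C. It fell by 1.78 ± 0.31 in WT (adjusted p = 0.00905) and by 1.74 ± 0.31 in R141C (adjusted p = 0.0142).

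The 3 Fringe enzymes, which add sugars to the receptor and tune its choice of ligand, had negative differences throughout, from -0.18 to -1.12 in WT and from -0.91 to -1.45 in R141C. Of these Rfng in R141C passed. It was at 4.49 and 4.42 at day 0 and at 3.64 and 3.44 at day 6 in R141C (A_55_P2109429, chromosome 11, 120642060 to 120642119), and fell by 0.91 ± 0.22 (adjusted p = 0.0342). In WT Rfng went from 4.53 and 4.1 to 3.81 and 3.85, a difference of -0.48 ± 0.22 that did not pass (adjusted p = 0.153). A second probe for Mfng, A_55_P2044439, was lower in WT by 1.48 (adjusted p = 0.0196 over all probes), where the brighter one missed the threshold (-1.12, adjusted p = 0.0756).

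The remaining modulators, Dtx3, Dtx4, Numb, Numbl and Psen2, differed by 0.18 to 0.76 in WT and by -0.75 to 0.8 in R141C, and none passed. Numb and Numbl encode endocytic adaptors that restrain the receptor, and Dtx3 and Dtx4 further Deltex proteins.

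**Figure D2:**
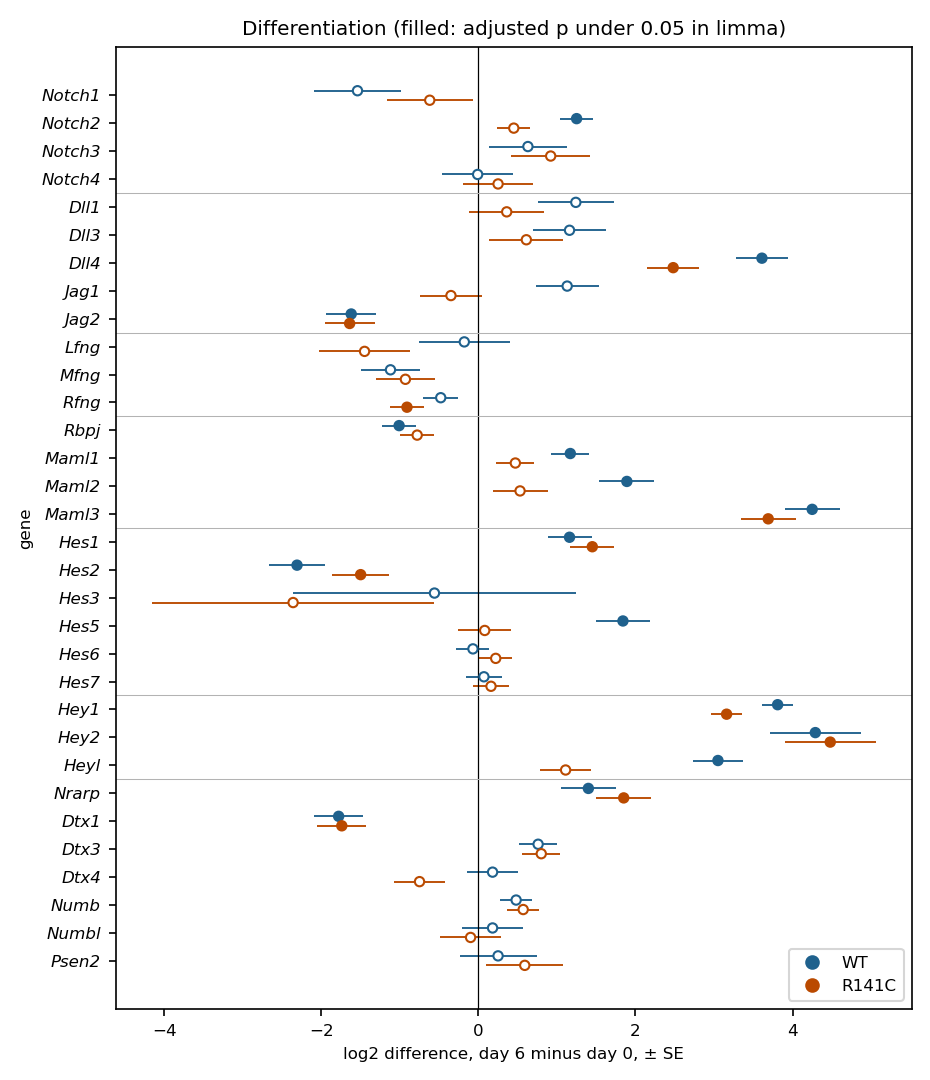
Log2 difference of each gene between day 6 and day 0 (points, with bars of 1 SE from limma) in WT (blue) and R141C (orange), filled where the adjusted p was under 0.05. Hey1, Hey2, Dll4 and Maml3 are filled in both genotypes and lie between 2.48 and 4.48, while Hes5, Heyl, Notch2, Rbpj, Maml1 and Maml2 are filled in WT alone.

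Of the 15 calls in WT 9 were lost when some single array was left out, and of the 10 in R141C 6 were. Without WT day 6 replicate 1 or replicate 2, 7 of the 32 were called in WT in place of 15, and Dll4, Hes2, Hey1, Hey2, Heyl and Maml3 were the 6 called whichever array was left out. In R141C 4 were called without day 0 replicate 1 or day 6 replicate 1 and 6 without day 0 replicate 2 or day 6 replicate 2, in place of 10, and Dll4, Hey1, Hey2 and Maml3 were called whichever array was left out. In such a fit the lone array of a group is assumed to vary as the other groups do.

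At day 6 the genes of the Notch pathway were more often lower than higher in R141C, without any reaching the threshold. In limma 0 of the 32 were called (smallest adjusted p = 0.219), where 17 of all genes were (0.0657%). At an unadjusted p under 0.05 there were 6, 18.8% against 8.54% of all genes. Hes5, Hey1, Heyl, Jag1 and Dll4 were the 5 lower ones (15.6%, against 3.39% of all genes), and Numb was the 1 higher (3.12%, against 5.15%). Heyl passed the filter only through WT day 6, the group where it is high, so its place among the lower genes is in part fixed by the filter, and without it 4 of 31 were lower. Counted after the values were seen, 15 of the 32 (46.9%) were lower in R141C without overlap of the arrays, against 16.5% of all genes, and 2 (6.25%) were higher without overlap, against 27.8%. Without Heyl 14 of 31 were lower without overlap. The median difference of the 32 was -0.17, beside 0.07 over all genes, and 12 of the 32 differences were above 0 (58.1% of all genes were). The differences ran from -1.59 for Hes5 to 0.58 for Numb.

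Differences of 1 or more on the log2 scale were found in 5 genes (15.6%), all lower in R141C, where 3.53% of all genes were lower by that much, and in 4 of 31 without Heyl. Hes5 (0.11 and -0.44 in WT, -1.78 and -1.74 in R141C) differed by -1.59 ± 0.34 (adjusted p = 0.287), and Hey1 (3.88 and 3.71, then 2.84 and 2.52) by -1.11 ± 0.2 (adjusted p = 0.219). Jag1 (A_52_P634090, chromosome 2, 136907433 to 136907492), a ligand of smooth muscle, endothelium and heart cushions, was at 1.91 and 1.76 in WT and 0.13 and 0.82 in R141C, and differed by -1.36 ± 0.4 (adjusted p = 0.426). Heyl differed by -1.41 ± 0.32 (adjusted p = 0.33) and Dll4 by -1.02 ± 0.33 (adjusted p = 0.471), with the array values given above. In all 5 the WT arrays lay above the R141C arrays. With normexp background correction the differences of the dim genes Dll4 and Heyl were -0.55 and -0.48.

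**Figure D3:**
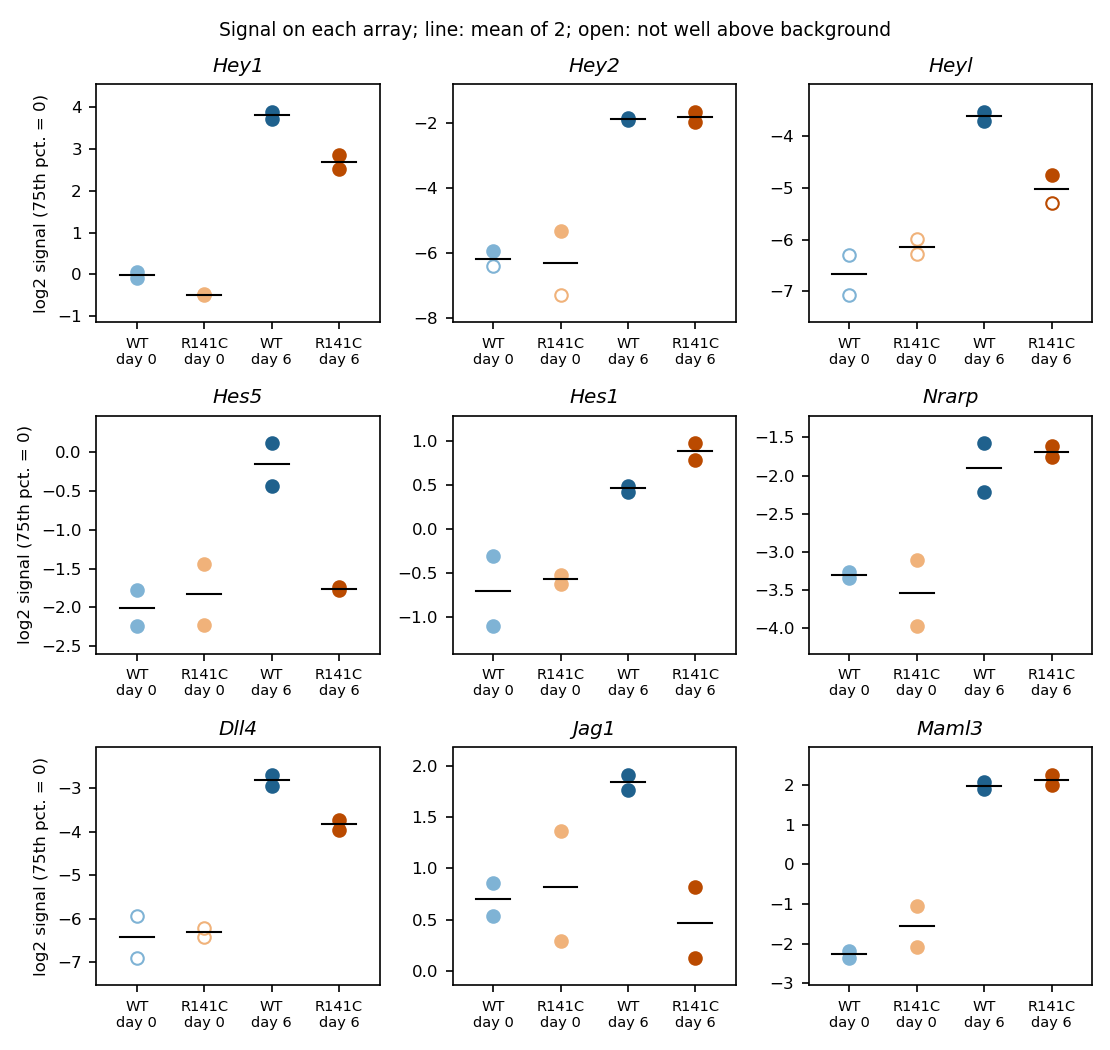
Log2 signal of 9 of the genes on each of the 8 arrays (points; open where not well above background), with the mean of each group as a line. At day 6 the R141C points of Hey1, Heyl, Hes5, Dll4 and Jag1 lie below the WT points, while those of Hey2, Nrarp and Maml3 overlap with WT and those of Hes1 lie above.

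By role, the median difference was -1.11 for the 3 Hey factors and -0.99 for the 5 ligands. It was -0.31 for the 4 nuclear partners, -0.28 for the 3 Fringe enzymes and -0.12 for the 4 receptors. For the 7 modulators it was 0.04 and for the 6 Hes factors 0.14. The Hey median includes Heyl, which passed the filter only through WT day 6, where it is high, so it is in part fixed by the filter. All 5 ligand differences were negative, from -1.36 for Jag1 to -0.02 for Jag2, and 4 of the 5 had no overlap. Dll1, at -1.06 and -1.68 in WT and -2.54 and -2.18 in R141C, differed by -0.99 ± 0.48 (adjusted p = 0.65). The 3 Fringe enzymes were negative as well, with Lfng at -2.44 and -2.72 in WT and -4.16 and -2.72 in R141C (-0.86 ± 0.58, adjusted p = 0.724). Of the receptors, Notch4 was at 0.13 and 0.28 in WT and -0.7 and -0.32 in R141C (-0.71 ± 0.45, adjusted p = 0.715), and Notch1 and Notch3 differed by 0.5 and 0.1. Notch4 was lower in R141C at day 0 as well (-0.97 ± 0.45), with overlap of the arrays.

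The target genes did not move as a block. Of the 3 Hey factors Hey1 and Heyl were lower and Hey2 differed by 0.05 ± 0.58 (adjusted p = 0.986). Of the 6 Hes factors Hes5 was lower, Hes1 was higher without overlap by 0.42 ± 0.28 (adjusted p = 0.724), and Nrarp, a further target, differed by 0.21 ± 0.35 (adjusted p = 0.887). Among the nuclear partners Maml2 differed by -0.8 ± 0.35 (adjusted p = 0.613) and Maml3 by 0.15 ± 0.35 (adjusted p = 0.921). The brighter Rbpj probe was lower in R141C without overlap (-0.37) and the dimmer one higher (0.84), so Rbpj has no settled direction. Numb was at -1.23 and -1.44 in WT and -0.63 and -0.89 in R141C, and differed by 0.58 ± 0.2 (adjusted p = 0.5).

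**Figure D4:**
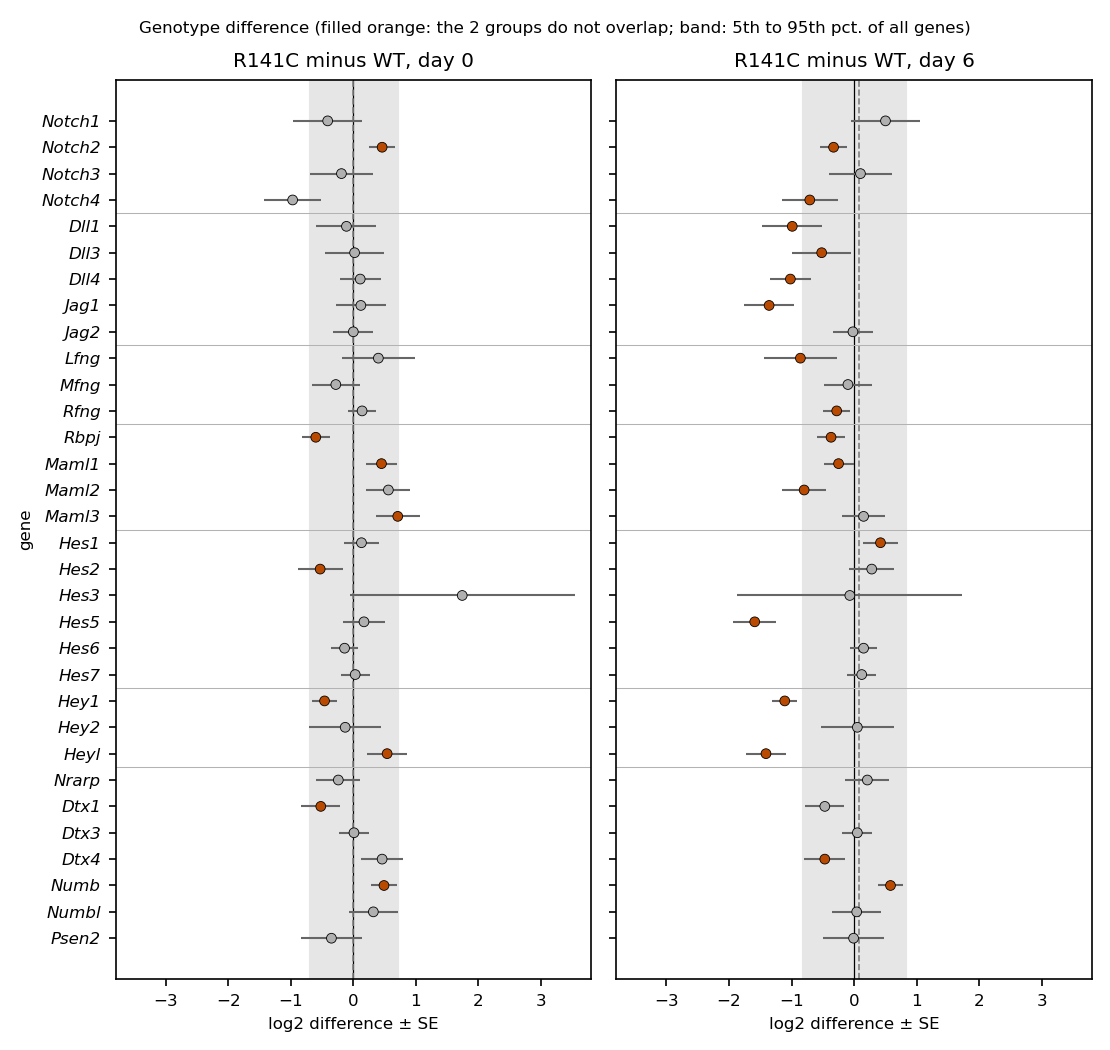
Log2 difference between R141C and WT for each gene (points, with bars of 1 SE from limma) at day 0 (left) and day 6 (right), in orange where the arrays of the genotypes do not overlap; the grey band runs from the 5th to the 95th percentile of all genes and the dashed line is their median. At day 6 Hes5, Heyl, Jag1, Hey1, Dll4, Dll1 and Lfng lie below the band, which starts at -0.82, and no gene lies above it.

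At day 0 the 32 genes as a group differed little between the genotypes. None was called in limma, nor was any gene on the array (0%), and the adjusted p was 0.9995 or above for each of the 32. At an unadjusted limma p under 0.05 there were Rbpj (-0.6 ± 0.22) and Numb (0.49 ± 0.2), 6.25% of the genes against 4.5% of all genes. The arrays did not overlap for 9 of the 32 (28.1%), close to the 28.8% of all genes, and the median difference was 0.03, beside 0 over all genes. Hes3 had the largest difference, 1.74 ± 1.8 (SE), and without WT day 0 replicate 2 it was -1.03. Notch4 had the most negative difference, -0.97 ± 0.45, and its arrays overlapped. Hey1 was lower in R141C without overlap by 0.46 ± 0.2, and Dll4 and Heyl were not well above background in either genotype.

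The test of whether the genotype difference changed between the days found no gene, among the 32 or on the whole array (0%), in limma. At an unadjusted p under 0.05 there were 6 of the 32 (18.8%), all with a more negative difference at day 6, against 2.5% of all genes in that direction. They were Heyl (-1.95 ± 0.46, adjusted p = 0.688), Hes5 (-1.77 ± 0.48, adjusted p = 0.75), Jag1 (-1.48 ± 0.57, adjusted p = 0.866), Maml2 (-1.36 ± 0.5, adjusted p = 0.851), Dll4 (-1.13 ± 0.47, adjusted p = 0.88) and Notch2 (-0.8 ± 0.3, adjusted p = 0.866). A dimmer Notch2 probe, A_55_P1982793, changed by -0.09. The values of Heyl and Dll4 rest on day 0 signals not well above background, so their sizes are not measured, and without both genes the count was 4 of 30. For Notch2, Hes5, Heyl, Rbpj, Maml1 and Maml2, called during differentiation in WT alone, this test therefore does not show that the genotypes responded differently. The same 2 WT day 6 arrays enter the WT differentiation, the genotype difference at day 6 and this test, so these values are not independent.

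Other genes of the pathway were taken from lists chosen with these genes. In both genotype comparisons and in the test of their difference, no gene of any of these lists was called. For the counts of these lists and of the markers below, 24% of all genes were called between the days in WT (11% rising and 12.9% falling). In R141C 15.6% were (7.6% rising and 8.04% falling). No list was tested as a set. Of 10 genes for cutting and maturing the receptor, 4 rose and 1 fell in WT and 4 rose in R141C. Aph1b, a gamma-secretase subunit, rose by 3.23 (adjusted p = 0.00735) in WT and 2.6 (adjusted p = 0.0216) in R141C, Adam10, a protease that cuts the receptor, by 1.82 and 1.34 (adjusted p = 0.0126 and 0.0472), and Aph1a by 1.39 and 1.14 (adjusted p = 0.00652 and 0.0184). Of 5 ubiquitin ligases that act on the ligands, none was called in WT. Neurl3 rose 3.44-fold in R141C, measured as for Heyl, and limma on the signals not raised gave an adjusted p of 0.0168. Neurl3 passed the filter only through R141C day 6, the group where it is high. Of 9 genes of receptor turnover, none was called in WT and Nedd4l fell by 1.14 (adjusted p = 0.0285) in R141C.

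Of 8 non-canonical ligands, 2 rose and 2 fell in WT, and 1 rose and 2 fell in R141C. Mfap5, a microfibril protein, fell by 4.12 (adjusted p = 0.00259) in WT and by 4.05 (adjusted p = 0.00426) in R141C, and Egfl7, an endothelial protein, rose by 1.54 (adjusted p = 0.00973) and 2.28 (adjusted p = 0.00398). Of 20 co-repressors and co-activators, 2 rose and 3 fell in WT, and 1 rose and 3 fell in R141C. Kat2b, an acetyltransferase, fell by 2.57 (adjusted p = 0.00199) and by 2.15 (adjusted p = 0.00548). Of 18 other genes reported as Notch targets, 5 rose and 4 fell in WT, and 3 rose and 1 fell in R141C. Sox9 rose by 6.02 (adjusted p = 0.00032) in WT and 4.5 (adjusted p = 0.000886) in R141C, and Snai2 by 5.02 and 4.07 (adjusted p = 0.00468 and 0.0138). Sox9 marks cartilage and valve progenitors and Snai2 mesenchyme.

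Markers of the cell types in which Notch acts changed between the days, and none was called between the genotypes. In bulk samples fewer cells of a type and less RNA per cell cannot be told apart. All 13 pluripotency markers were well above background on every array at day 0. Of the 13, 12 fell in WT, and 11 fell and 1 rose in R141C, and of 12 blood and visceral endoderm markers 12 rose in each. At day 6 the mean signal of the 13 was 2.06 and 1.94 in WT and 2.29 on each R141C array, without overlap. That of the blood and visceral endoderm markers overlapped between the genotypes. Of 14 endothelial markers, 11 rose in WT and 10 in R141C, and Dll4 is a ligand of this tissue. Cdh5, the junction protein of endothelium, rose by 7.17 (adjusted p = 0.000726) in WT and 6.58 (adjusted p = 0.00148) in R141C. Their mean log2 signal at day 6 was 0.42 and 0.59 on the WT arrays and 0.62 and 0.38 on the R141C arrays, which overlap, and all 14 were well above background on at least 1 array of each genotype. At day 0 it was -3.36 to -2.52, with Emcn and Erg not well above background.

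Of 20 cardiomyocyte and trabecular genes, 16 rose in WT and 9 in R141C. Tnnt2, cardiac troponin T, rose by 9.15 (adjusted p = 0.00298) in WT and 4.66 (adjusted p = 0.0392) in R141C. At day 6, 17 of the 20 had a negative difference between R141C and WT, with a median difference of -1.98, and none was called. Their mean signal was 2.12 and 2.23 on the WT arrays and -0.57 (replicate 1) and 1.26 (replicate 2) on the R141C arrays, and each of the 20 was well above background on at least 1 array of each genotype. Of the 5 Notch genes lower by 1 or more, Jag1, Heyl and Dll4 were also lower on R141C replicate 1 than on replicate 2, Hey1 was higher there, and Hes5 was nearly equal. Dll1, Lfng and Notch4 were lower on replicate 1 as well. The part of heart muscle content in the genotype differences of the Notch genes was not tested. Nkx2-5 itself was at 1.86 ± 0.1 in WT and 1.56 ± 0.04 in R141C at day 6 (SD, n = 2; difference -0.3, adjusted p = 0.927) and differed by 2.18 ± 0.76 (SE) at day 0 (adjusted p = 0.9995). It rose by 3.5 in WT (adjusted p = 0.0192) and differed by 1.02 in R141C (adjusted p = 0.413), and its probe does not show the mutation.

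Of 17 genes of the segmentation clock and presomitic mesoderm, 7 rose and 1 fell in WT, and 4 rose and 1 fell in R141C. Mesp1, a mesoderm factor that acts at the start of heart formation, rose by 7 (adjusted p = 0.000428) in WT and 7.08 (adjusted p = 0.000726) in R141C. The mean signal of the 17 at day 6 was -0.01 and -0.28 in WT and -0.49 on each R141C array, without overlap. The part of such cells in the genotype differences of the Notch genes was not tested. Of 11 proneural factors and neuron markers none rose and 5 fell in each genotype, and Neurog3, a proneural factor, fell by 4.34 (adjusted p = 0.00151) in WT and by 4.73 (adjusted p = 0.00175) in R141C. Their mean signal at day 6 was -2.54 and -2.44 in WT and -3.21 and -3.15 in R141C, without overlap, beside the lower Hes5, and Neurod1 and Atoh1 were not well above background there. The part of neural cells in the difference of Hes5 was not tested.

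**Figure D5:**
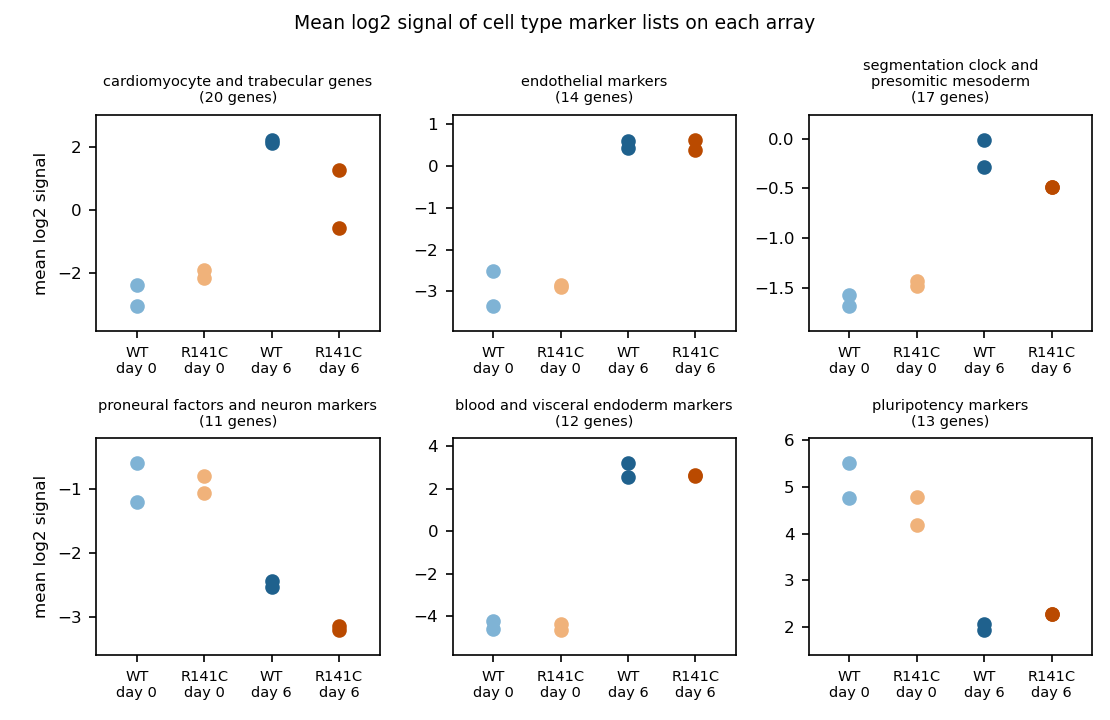
Mean log2 signal of 6 lists of cell type markers on each array (points) by group. At day 6 the cardiomyocyte list is lower in R141C than in WT (-0.57 and 1.26 against 2.12 and 2.23). The proneural list and the segmentation clock list are lower in R141C without overlap, and the pluripotency list is higher without overlap. The endothelial list and the blood and visceral endoderm list overlap.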

How the data were processed

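RNA of 8 samples was hybridised to single-colour Agilent arrays (Cy3), 2 arrays for each of 4 groups, and groups and replicate numbers follow the sample titles. The deposited intensity values were background-subtracted and detrended within each array by Feature Extraction, version 11.5.1.1 per the file headers and 10.5.1.1 per the submitters' processing notes. The authors' deposited series matrix holds log2 values of the same arrays (36388 probes; medians 8.986 to 9.037; r with the log2 scanner signal 0.9995 to 0.9999), whose exact scaling is not given in the sources used here, and served as an alternative. Probe positions are on mm9, per the file headers, and exons and UTRs of that build were not used here.

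Control spots and spots with outlier flags (131 to 251 per array) were left out, and 98 of 55681 probes had no value left on some array. No probe spot was saturated. The signal of a probe was averaged over its spots, put on the log2 scale and shifted by the 75th percentile of each array (936.3 to 1848 before the shift). The number of arrays limits the precision. Where a group was not well above background, "at least" marks a fold computed from the higher of the dim probe's signal and the dimmest signal well above background on each array.

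Differences were tested in limma 3.58.1 (R 4.3.3) with a model of 4 group means on 8 arrays, two-sided, with Benjamini-Hochberg adjustment over 25892 genes, and the fit was tested on simulated data. The labels call the samples biological replicates, and p-values measure the spread between these samples. The 32 genes and the lists were chosen with earlier results of these data known. Array values are given for genes called in any comparison or differing by 1 or more between the genotypes. Other lists are represented by up to 3 called genes with the largest change. The counts without overlap, and of differences of 1 or more, were chosen after the data were seen. Alternatives were quantile and median scaling, normexp correction (offset 50), the deposited values, other filters on dim probes, a trended robust variance, fits on only the arrays compared, other rules for several probes of a gene, the replicate number as a block, and fits without each array in turn. Promoters were searched with Python 3.11.15 and figures drawn with matplotlib 3.10.9.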

Additional observations from a re-analysis of the deposited data

Results flagged for a closer look

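For 3 of the 32 genes every R141C array lay above every WT array at day 0 and below every WT array at day 6. Of all genes, 14.5% were higher without overlap at day 0 and 16.5% were lower without overlap at day 6. The share of all genes with both was not counted, so the 3 are not shown to be more than usual. Heyl, 1 of the 3, passed the filter only through WT day 6, where it is high. The genotype difference of Notch2 was 0.46 at day 0 and -0.33 at day 6, a change of -0.8 (limma, adjusted p = 0.866). That of Heyl was 0.54 at day 0, where neither genotype was well above background, and -1.41 at day 6, a change of -1.95 (adjusted p = 0.688). That of Maml1 was 0.45 and -0.25, a change of -0.7 (adjusted p = 0.887). The test of the change did not pass for any of them. A dimmer Notch2 probe, A_55_P1982793, differed by 0.17 at day 0 and by 0.08 at day 6, without a reversal. No group held enough arrays for a test of single arrays that stand apart.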

How the results depend on the processing

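No gene of the 32 was called in either genotype comparison or in the test of their difference under any alternative, and the fit on only the arrays compared gives no value for the latter. The 15 calls during WT differentiation ranged from 7 (without WT day 6 replicate 1 or 2) to 16 when 1 array was left out, and from 11 to 16 under the other alternatives. The 10 in R141C ranged from 4 (without day 0 or day 6 replicate 1) to 10, with 6 without day 0 or day 6 replicate 2, and from 8 to 11 otherwise. Notch2 in WT was lost with the mean of its probes. Hes1 in WT and Jag2 and Rfng in R141C were lost with only the arrays compared, Hes2 in R141C with normexp correction, and Hes2 and Rfng in R141C with no filter on dim probes. The 5 genes lower in R141C by 1 or more at day 6 became 3 with normexp correction and 3 among probes well above background on all 8 arrays, and 4 to 7 without 1 array. The genotype difference of Hes3 at day 0 reversed from 1.74 to -1.03 without WT day 0 replicate 2, and was up to 4.51 without replicate 1. Same-numbered samples had deviations correlated at 0.0661 (day 6), -0.136 (day 0), -0.000114 (WT days) and 0.339 (R141C days). With 2 pairs a comparison and no label that ties them, they were not treated as pairs. With the replicate block the counts were 0 at day 6, 0 at day 0, 15 in WT, 10 in R141C and 0 for the difference, and a crossed block at day 0, added after seeing the data, gave 0. Over all genes, WT differentiation split into 2860 higher and 3345 lower, which became 3111 and 2759 with median scaling (median of all genes 0 in place of -0.12) and 5701 and 3270 with no filter. The 17 genes called on the whole array at day 6 became 117 without R141C day 6 replicate 2, and 0 to 17 under every other setting. The cause of these changes was not tested.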
